A study of Homo sapiens with 17 samples.

Results

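K562 cells that had been given doxycycline (Dox) for 3 d were compared with cells given water for 3 d. K562 is an established human erythroleukemia line. Cells of both groups carried an inducible short hairpin RNA that targets Drosha, so the controls hold the construct as well, without the inducer. The 4 samples, chosen by day and treatment from 17 in the series, were Dox replicates 1 and 3 (1 µg/mL) and water replicates 1 and 3. The labels call the replicates independent and biological, and do not say whether the line is 1 clone. Small RNA was sequenced, and a deposited table for each replicate number lists alignments on hg19 with the reads of its water and its Dox library.

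Drosha is the nuclear nuclease that cuts primary microRNA transcripts and frees the precursor hairpin, which Dicer then cuts into a duplex of a 5p and a 3p arm. Some hairpins are known to bypass Drosha: mirtrons are freed by splicing, others begin at a capped transcription start, and a few lie in small nucleolar RNAs. A mature microRNA finds its targets mainly through its seed, bases 2 to 8.

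Mature sequences of microRNAs described below are from RefSeq (GRCh38.p14), printed 5′ to 3′ with the seed in capitals. The first 5 belong to matched hairpins of the Drosha bypass list, which was drawn up beforehand from hairpins known to bypass the enzyme.
miR-877-5p: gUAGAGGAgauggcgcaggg
miR-1226-3p: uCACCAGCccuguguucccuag
miR-484: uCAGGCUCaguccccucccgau
miR-664a-3p: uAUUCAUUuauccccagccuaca
miR-1248: aCCUUCUUguauaagcacugugcuaaa
The next 5 come from the miR-17-92 cluster and show the seeds by which its members are grouped below.
miR-17-5p: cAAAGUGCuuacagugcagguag
miR-20a-5p: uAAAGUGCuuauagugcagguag
miR-19a-3p: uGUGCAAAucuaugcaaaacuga
miR-19b-3p: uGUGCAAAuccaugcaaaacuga
miR-92a-3p: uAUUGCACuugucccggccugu
The last 4 are the named microRNAs that passed the test over all loci.
miR-184: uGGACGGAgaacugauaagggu
miR-7706: uGAAGCGCcugugcucugccgaga
miR-7974: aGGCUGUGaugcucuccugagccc
miR-659-5p: aGGACCUUcccugaaccaagga

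The tables have no header, and which columns are Dox was read at the site in DROSHA that the hairpin targets, chr5:31511235-31511265. Its plus strand held 40 and 77 reads in water replicates 1 and 3 and 42242 and 246275 in Dox. The minus strand held 311 and 111 reads in water and 172907 and 200722 in Dox. These reads set the columns, so they are a description and no finding.

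Loci were built from the reads. A two-arm locus is a pair of 20 to 24 nt read stacks that share a strand, the second starting 30 to 48 nt from the first. There were 1131 two-arm loci, 12600 single stacks and 108042 other loci. Of these, 199 were given a microRNA name, 130 at two-arm loci and 69 at single stacks, and 1001 two-arm loci stayed unnamed. The shape alone does not make an unnamed locus a microRNA hairpin. Loci with the same mature sequence, such as let-7a or miR-92a, cannot be told apart.

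The water libraries held fewer reads of microRNA length. Reads of 20 to 24 nt were 41.1% and 31.7% of listed reads in water replicates 1 and 3 and 73.9% and 61.7% in Dox, and 60.8% to 70.4% in the 6 water libraries of 13 d and 31 d. Library totals recovered from the deposited scaling ran from 37273110 to 60664469 reads, of which 45.1% and 33.2% were listed for water and 69.8% and 58.2% for Dox. An alignment with no water read is not listed, so Dox reads at such positions are not counted.

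**Figure D1:**
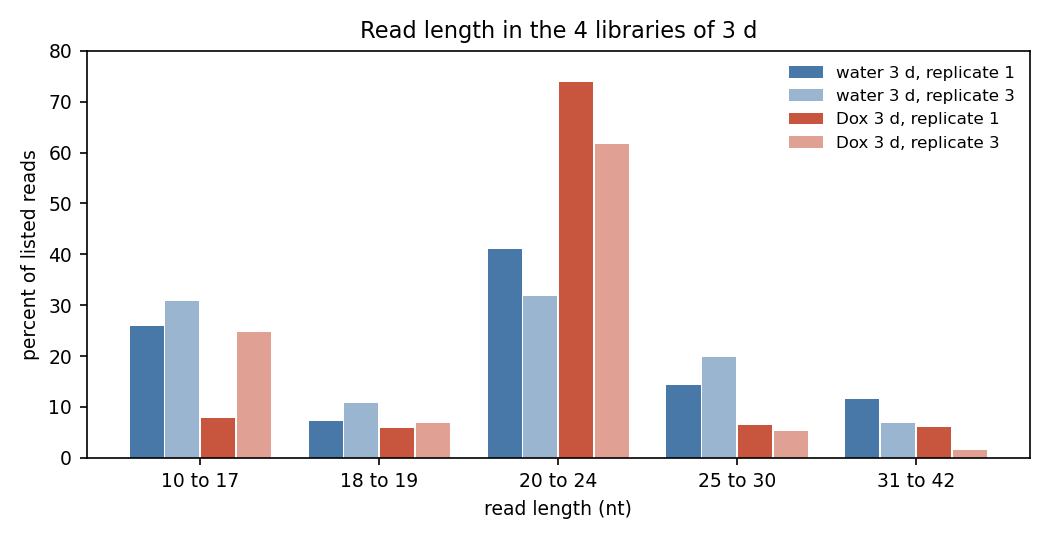
Read length in nt (x axis) as percent of listed reads (y axis), 1 bar for each of the 4 libraries of 3 d. At 20 to 24 nt both Dox bars, 73.9% and 61.7%, stand above both water bars, 41.1% and 31.7%.

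Most named microRNAs were higher in Dox on the deposited library scale, as RPM of the library total (reads scaled to library size, written rpm). Their median log2 of Dox over water was 0.98 in pair 1 and 2.37 in pair 3, and 168 of 199 were higher in both pairs. Both Dox libraries lay above both water libraries for 146 of them, where the same holds for 7.65% of all 121773 loci, and below for 3, where it holds for 45.7%. The shares of all loci rest mostly on the 108042 other loci, and Dox reads at alignments without a water read are not counted. A name at 1 arm needed 500 reads over the 4 libraries, and some loci reached that only with their Dox reads. The counts for named microRNAs are therefore partly set by the naming. By kind, 103 of the 130 named two-arm hairpins and 43 of the 69 named single stacks lay above. Of the 172 unnamed two-arm loci with at least 1000 reads, 45 lay above and 48 below. Named microRNAs made up 10.1% and 3.95% of the water totals and 38.7% and 26.3% of the Dox totals. The share of 20 to 24 nt reads moved with this, and its part in the result was not tested.

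Few single microRNAs passed the test. With edgeR's quasi-likelihood test, TMM scaling and Benjamini-Hochberg adjustment, 4.24% of 81113 loci tested were called higher in Dox at 0.05 and 13.8% lower. Among the 199 named microRNAs 4 were called, all higher, a share of 2.01% beside the 4.24% of all loci, and 49 had an unadjusted p under 0.05. All 4 reached the reads needed for a name only through Dox, as described below. The 130 named two-arm hairpins had no call by edgeR and 24 with an unadjusted p under 0.05. DESeq2 called 20 named microRNAs, all higher, beside 5.44% of all loci called higher. Over all loci DESeq2 called 4409 higher and 2549 lower, so the balance turned from mostly lower with edgeR to mostly higher. None of these fits paired same-numbered libraries. With the replicate number as a block edgeR called 1983 loci higher and 2 lower, and 1 named microRNA.

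The scale decides much of this. The median log2 change over all loci tested was -0.40 with TMM, -1.25 with the library totals and -3.08 with TMM over named two-arm hairpins. The median of the named microRNAs on the same scales was 3.24, 1.67 and 0.15. The last scale is set by 130 of these loci themselves, so a median near 0 is built in. A locus that rose less than they did turns lower on it. With the library totals edgeR called 3.66% of all loci, 24 higher and 2945 lower where TMM gave 3443 and 11178, and none of the named microRNAs, of which 1 had an unadjusted p under 0.05.

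The calls moved with single libraries as well. A fit without 1 library leaves 1 library in its group, so only its median log2 change is given. For the named microRNAs it was 3.28 without water replicate 1 and 2.47 without water replicate 3. It was 1.93 without Dox replicate 1 and 3.69 without Dox replicate 3. Over all loci tested the medians were -0.41, -0.43, -0.54 and -4.20 in the same order. Replicates differed more than 2-fold for 108 of 199 named microRNAs in water and for 93 in Dox.

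**Figure D2:**
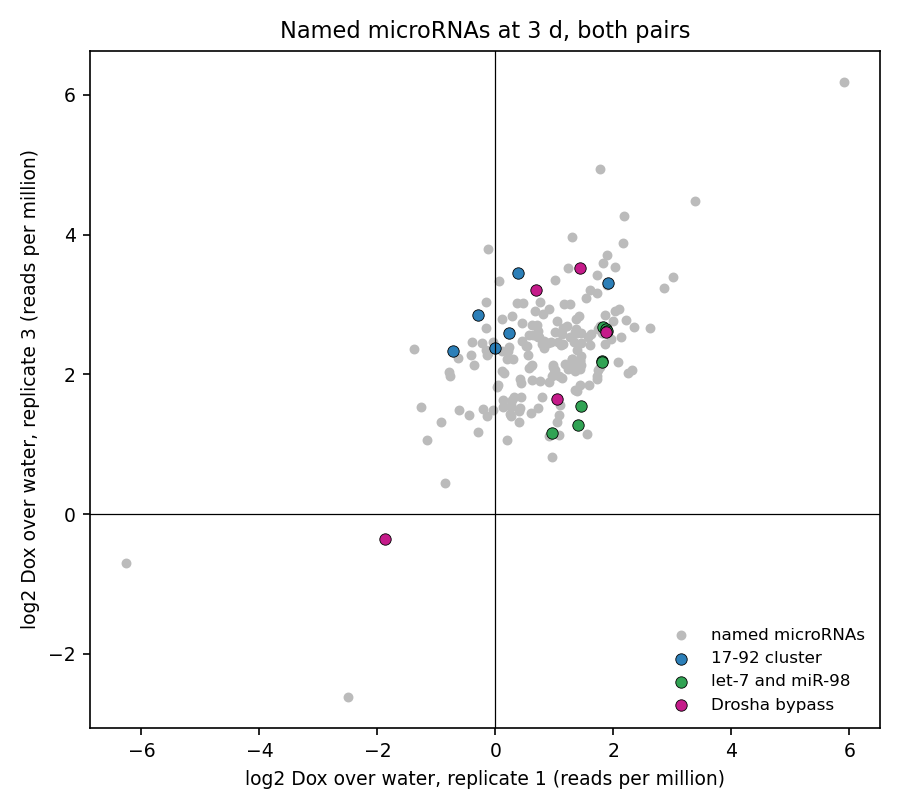
Log2 of Dox over water in RPM in pair 1 (x axis) and pair 3 (y axis), 1 point for each of 199 named microRNAs, with the members of 3 lists in colour. In pair 3 196 points lie above 0, and in pair 1 168.

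The 4 named microRNAs past the threshold were single stacks with low levels in water, and they fall outside the rule for named hairpins, so they were chosen after their values were seen. A name at 1 arm needed 500 reads over the 4 libraries, and the water reads of each stayed below that. Each passed only with its Dox reads, so the naming favoured low loci that rose. That all 4 calls are higher was partly set by it. MIR184 (chr15:79502182-79502203), known from the lens and cornea, had 0.483 and 0.0390 rpm in water replicates 1 and 3 and 29.0 and 2.85 rpm in Dox. Its edgeR log2 change was 8.37 ± 2.21 (SE, Benjamini-Hochberg adjusted p = 0.00318), above its pair ratios of 5.91 and 6.19. With the library totals it was 5.93 (edgeR adjusted p = 0.108), and scaled over the named hairpins 4.93 (edgeR adjusted p = 0.137). Water replicate 3 held 2 of its reads, and the log2 ratio of pair 3 has an exact 95% interval from counting error of 4.31 to 9.25.

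MIR7706 (chr15:85923870-85923892) had 0.724 and 0.0585 rpm in water and 7.53 and 1.30 rpm in Dox, with an edgeR log2 change of 5.87 ± 1.96 (SE, adjusted p = 0.0217). With 3 reads in water replicate 3, its log2 ratio in pair 3, 4.48, has an interval of 2.87 to 6.79. MIR659 (chr22:38243739-38243760) had 1.96 and 0.195 rpm in water and 15.7 and 2.06 rpm in Dox, with an edgeR adjusted p of 0.0303. In MIR659 the lower Dox library barely cleared the higher water library. MIR7974 (chr19:11606359-11606382) had 4.08 and 1.33 rpm in water and 29.7 and 12.4 rpm in Dox, with an edgeR adjusted p of 0.0440. In all 4 the groups did not overlap, beside 146 of 199 named microRNAs and 7.65% of all loci. Replicate 1 was the higher one within each group.

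The 4 two-arm loci past the threshold have no name, and Dox replicate 1 was the highest library at each. The locus chr11:10530762-10530827 had 2.58 and 2.59 rpm in water and 36.6 and 3.79 rpm in Dox. At chr5:79946890-79946958 the levels were 1.90 and 1.17 rpm in water and 39.2 and 3.24 rpm in Dox. At chr3:96337104-96337170 they were 1.29 and 0.663 rpm in water and 28.2 and 1.82 rpm in Dox. All 3 were high in 1 library, with the other Dox library close above water. Their profiles were alike, with 2223, 2381 and 1710 reads in Dox replicate 1 at the chr11, chr5 and chr3 loci. Whether they share reads was not tested, so they may not be separate measurements. The locus chr17:22020719-22020777 had 2.23 and 0.136 rpm in water and 51.8 and 3.08 rpm in Dox, and its pairs gave nearly the same log2 of Dox over water, 4.54 and 4.50. In Dox replicate 1 nearly all reads lay on 1 arm, for example 2204 of 2223 at the chr11 locus.

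The other unnamed two-arm loci leaned lower in the listed reads. Dox reads at alignments without a water read are not counted, so the Dox values are lower bounds. With at least 10 water reads per alignment fewer two-arm loci, named and unnamed, were tested. Their median edgeR log2 change was then 1.504, against -0.285 without that limit. Two-arm loci tested fell from 1121 to 573 and named microRNAs from 199 to 193, so the mix of loci and the scaling changed too. What the turn rests on was not tested. Unnamed loci alone were not tested at that limit. Over all 1131 two-arm loci the median log2 was -2.55 in pair 1 and -0.89 in pair 3, and 731 of the 1001 unnamed ones were lower in both pairs. Of the 172 unnamed loci with at least 1000 reads, 63 were higher and 71 lower in both. One of the most abundant, chr5:134259779-134259836, had 1547 and 2663 rpm in water and 456 and 445 rpm in Dox. Both Dox libraries lay below both water libraries there, as at 48 of these 172 loci and 45.7% of all loci. The locus was not called by edgeR (adjusted p = 0.952).

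Of the 10 two-arm loci with most water reads, 8 were higher in Dox in both pairs, and none was called by edgeR. MIR148A (chr7:25989542-25989601) had 33444 and 4387 rpm in water and 205439 and 27673 rpm in Dox. Its pairs gave nearly the same log2 of Dox over water, 2.62 and 2.66, yet water replicate 1 lay above Dox replicate 3, so the groups overlap. MIR21 (chr17:57918634-57918694), which is raised in many tumours, had 10336 and 6068 rpm in water and 30139 and 51792 rpm in Dox. MIR146B (chr10:104196277-104196336), a known brake on NF-κB signalling, had 10970 and 6462 rpm in water and 27997 and 26597 rpm in Dox. Neither of these overlapped between groups. MIR10A (chr17:46657227-46657288), which lies among the HOXB genes, had 2767 and 1043 rpm in water and 9137 and 9341 rpm in Dox, again without overlap.

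The miR-17-92 cluster yields 6 hairpins from 1 primary transcript and is known for driving proliferation. Its members were higher in pair 3, between 2.34 and 3.45, but ranged from -0.72 to 1.91 in pair 1. MIR17 (chr13:92002872-92002932) had 1625 and 1777 rpm in water and 1319 and 12810 rpm in Dox, log2 -0.30 and 2.85. MIR20A (chr13:92003326-92003384) had 1319 and 2418 rpm in water and 1719 and 26395 rpm in Dox, log2 0.38 and 3.45. For both, Dox replicate 3 was high and Dox replicate 1 lay within or below the range of the water libraries. MIR92A1 (chr13:92003578-92003638) had 6395 and 1930 rpm in water and 23979 and 19061 rpm in Dox, log2 1.91 and 3.30, without overlap. None of the 6 was called by edgeR, and MIR18A, MIR19A and MIR19B1 turned lower, at -0.02, -0.26 and -0.09, when scaled over the named hairpins.

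Seeds of the cluster are shared with other loci. The 5 loci with the seed AAAGUGC (MIR17, MIR20A, MIR93, MIR20B and MIR106A) ranged from -0.30 to 0.56 there and from 2.56 to 3.45 in pair 3. The 5 with AUUGCAC (MIR92A1, MIR92A2, MIR25, MIR32 and MIR92B) ranged from 0.96 to 1.91 and from 1.97 to 3.30. The ranges of these 2 seeds are apart in pair 1 and overlap in pair 3. The 3 with GUGCAAA (MIR19A, MIR19B1 and MIR19B2) ranged from -0.72 to -0.01 and from 2.30 to 2.38, and in pair 1 they overlap the range of AAAGUGC. A shared seed did not go with like values throughout, since the 4 loci with AGCAGCA (MIR15B, MIR16-1, MIR16-2 and MIR195) ranged from 0.11 to 2.10 in pair 1. Loci with nearly the same sequence can share reads, so they are not separate measurements.

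In the miR-106b-25 cluster, a relative of miR-17-92, all 3 members were higher in both pairs without overlap, beside 146 of 199 named microRNAs and 7.65% of all loci. MIR25 had 2832 and 800 rpm in water and 6196 and 4749 rpm in Dox. MIR106B had 359 and 154 rpm in water and 1199 and 964 rpm in Dox. Of the miR-106a-363 cluster 4 of 6 were matched, and 2 were higher in both pairs. None of these 7 loci was called by edgeR.

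Let-7, a family known to restrain growth, was higher in both pairs at the 8 loci matched of 12 listed, with medians of 1.80 and 2.18. MIRLET7F1 (chr9:96938635-96938656) had 319 and 98.6 rpm in water and 1111 and 449 rpm in Dox. MIRLET7E (chr19:52196046-52196113) had 137 and 117 rpm in water and 267 and 261 rpm in Dox. The groups did not overlap at 7 of the 8, beside 146 of 199 over all named microRNAs and 7.65% of all loci. MIRLET7A1, MIRLET7A2 and MIRLET7A3 are let-7a loci, which cannot be told apart, so the 8 are not separate measurements. None was called by edgeR, and MIRLET7E and MIRLET7C turned lower, at -0.53 and -0.15, when scaled over the named hairpins. The matched miR-30 loci, MIR30A, MIR30C1 and MIR30E, were higher in both pairs, with medians of 1.19 and 2.60 and no call.

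Of the erythroid list, markers of the lineage K562 belongs to, 1 of 4 was matched. MIR144 had 31.9 and 33.2 rpm in water and 28.5 and 273 rpm in Dox, so the pairs went opposite ways, log2 -0.16 and 3.04, and edgeR did not call it. Of 14 markers of other cell types 3 were matched. The myeloid MIR223 had 222 and 118 rpm in water and 548 and 550 rpm in Dox. MIR142, of blood cells in general, had 72.0 and 99.5 rpm in water and 78.0 and 503 rpm in Dox, and the muscle marker MIR1-2 had 5.04 and 0.468 rpm in water and 15.3 and 4.33 rpm in Dox.

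Of 16 hairpins listed as bypassing Drosha 5 were matched, and 4 were higher in both pairs without overlap, beside 146 of 199 named microRNAs and 7.65% of all loci. The list's median log2 was 1.05 in pair 1 and 2.60 in pair 3, beside 0.98 and 2.37 over all named microRNAs. The mirtron MIR877 (chr6:30552109-30552132) had 2.84 and 1.03 rpm in water and 10.4 and 6.28 rpm in Dox. The mirtron MIR1226 (chr3:47891098-47891120) had 2.50 and 0.819 rpm in water and 4.01 and 7.53 rpm in Dox. Both had higher levels in each Dox library than in either water library. Both were single stacks whose water reads stayed below the 500 needed for a name at 1 arm. They were named only with their Dox reads, so their place among the risers was partly set by the naming. MIR1248, described below, also needed its Dox reads for a name. MIR484 (chr16:15737158-15737180), which begins at a capped start, had 26.9 and 12.1 rpm in water and 72.3 and 139 rpm in Dox. MIR664A (chr1:220373890-220373951), which lies in a small nucleolar RNA, had 4.78 and 4.41 rpm in water and 9.86 and 13.8 rpm in Dox, and it turned lower, at -0.29, when scaled over the named hairpins.

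MIR1248 (chr3:186504464-186504487), also within a small nucleolar RNA, went the other way. It had 3.97 and 4.95 rpm in water and 1.09 and 3.87 rpm in Dox, lower in both pairs without overlap. Its edgeR log2 change was 0.27 with TMM and -0.85 with the library totals, so its direction depends on the scale. RefSeq gives miR-1248 as 27 nt, longer than the reads of 20 to 24 nt counted here. None of the 5 matched hairpins was called by edgeR.

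Set against the median of the named microRNAs in each pair, 6 lay more than 2-fold above it in both pairs and 7 more than 2-fold below. They are described here because of these values, with no test. Above were MIR424, MIR152, MIR615, MIR184, MIR7706 and MIR659. MIR424 had 5.77 and 4.25 rpm in water and 25.8 and 62.7 rpm in Dox. MIR615, which lies among the HOXC genes, had 7.03 and 1.501 rpm in water and 31.8 and 28.8 rpm in Dox. Neither overlapped between groups. Below were MIR324, MIR616, MIR23A, MIR10527, MIR1246, MIR1248 and MIR421. MIR1246 had 53.3 and 231 rpm in water and 9.38 and 37.6 rpm in Dox, lower in Dox without overlap, as also were MIR10527 and MIR1248. RefSeq gives miR-1246 as 19 nt, and stacks hold reads of 20 to 24 nt, so reads of its mature length were not counted.

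The arm that led was the same in all 4 libraries for most hairpins. Of 105 named two-arm hairpins with at least 1000 reads, the 5p arm led throughout in 53 and the 3p arm in 36, and the lead differed between libraries in 16. The 5p share fell by more than 10 percentage points in both pairs in MIR30E, MIR32 and MIR424. MIR30E, of the miR-30 family, had a 5p share of 25.6% and 62.5% in water replicates 1 and 3 and of 7.19% and 51.9% in Dox. MIR32 had 57.3% and 90.6% in water and 22.9% and 74.8% in Dox. In each of the 3 the replicates of 1 group also lay far apart.

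The pairs of 3 d differed in direction from those of 13 d and 31 d, which have water controls of their own. In the 6 later pairs the median log2 of the named microRNAs ran from -2.94 to -1.70, where the pairs of 3 d gave 0.98 and 2.37. The means differed by 3.68, with an exact permutation p of 0.0357 (two-sided, 2 against 6 pairs), the smallest that 28 splits can give, and 0.0714 adjusted over 2 comparisons. The comparison over named microRNAs was added after seeing the data. Names at 1 arm needed 500 reads at 3 d, Dox included, which favoured loci high in Dox at 3 d. The planned one, over all two-arm loci, gave a difference of 0.20 and an exact permutation p of 0.893. Of the 168 named microRNAs higher in both pairs of 3 d, 114 were lower in all 6 later pairs.

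**Figure D3:**
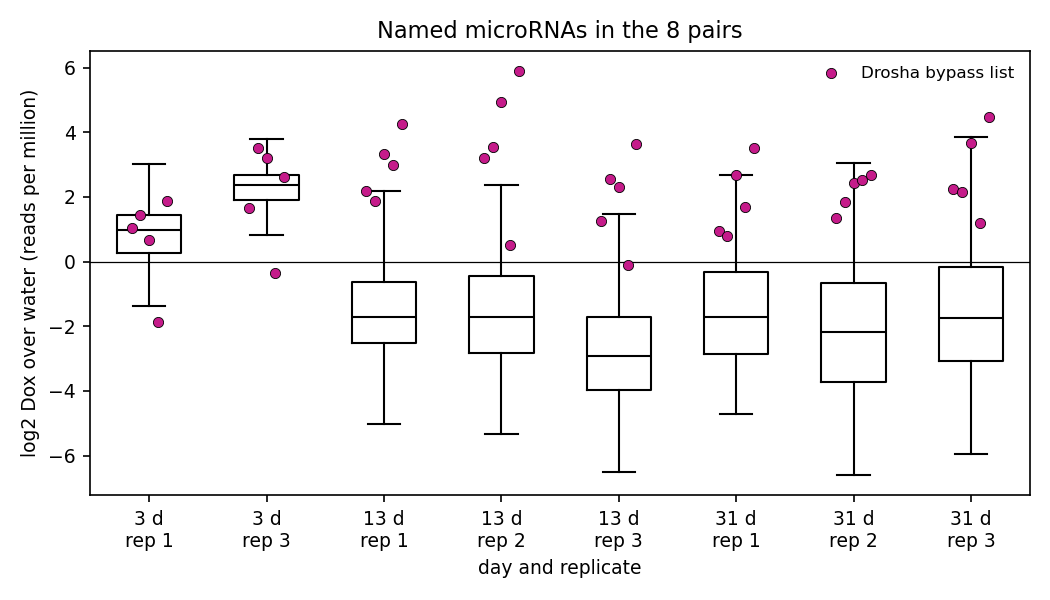
Log2 of Dox over water in RPM (y axis) of the 199 named microRNAs in each of 8 pairs (x axis, day and replicate). Boxes span the quartiles around the median, whiskers reach at most 1.5 box lengths with points beyond them not drawn, and filled points are the 5 matched hairpins of the Drosha bypass list; the median is 0.98 and 2.37 at 3 d and -2.94 to -1.70 later.

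The water libraries parted the days. Named microRNAs made up 26.5% to 47.0% of the totals in the 6 later water libraries, against 10.1% and 3.95% at 3 d, and 15.1% to 49.0% in the later Dox libraries, against 38.7% and 26.3%. Day and library cannot be told apart, since each library belongs to 1 day.

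**Figure D4:**
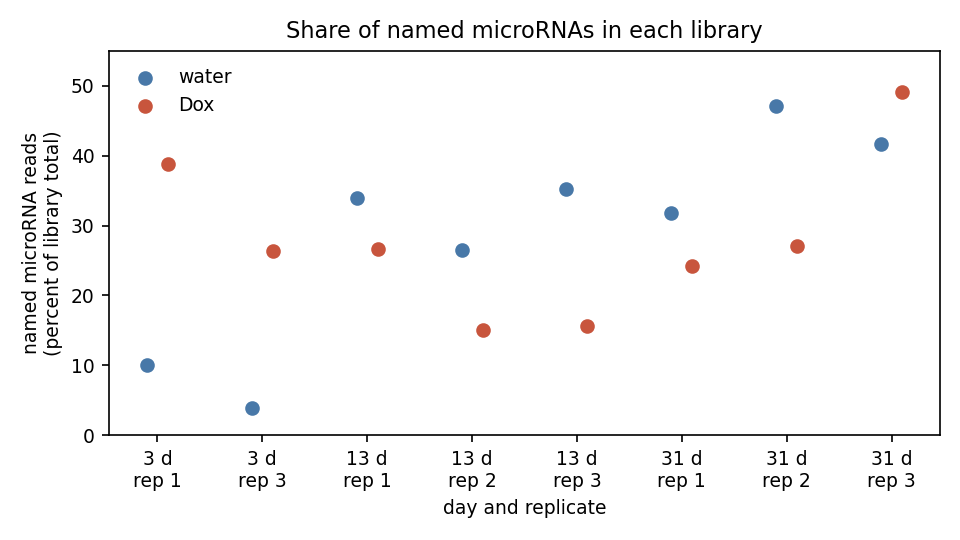
Named microRNA reads as percent of the library total (y axis) in the water and Dox library of each of 8 pairs (x axis, day and replicate). The water points of 3 d, 10.1% and 3.95%, lie below all later water points, 26.5% to 47.0%.

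Of the 199 named microRNAs 11 were higher in Dox in all 8 pairs, and 4 of these are on the Drosha bypass list. MIR877 had a log2 of 1.87 and 2.60 at 3 d and of 2.67 to 5.90 later. MIR1226 had 0.68 and 3.20 at 3 d and 2.30 to 4.94 later. Both were named only with their Dox reads of 3 d, so their rise at 3 d was partly set by the naming. MIR484 and MIR664A were the other two from the list, and MIR1248, also on it, was lower in both pairs of 3 d. The remaining ones, named after their values were seen, were MIR1293, MIR1843, MIR6733, MIR6741, MIR3675, MIR7706 and MIR933.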

How the data were processed

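Small RNA of K562 cells was sequenced, and the submitters' processing notes name Bowtie2 2.2.9 and hg19 (GRCh37). The authors deposited, per alignment and pair, read counts, RPKM values and the RPKM ratio of Dox over water; no label or table states how multi-mapped reads were placed. Library totals were recovered from counts, RPKM and length, and gave whole reads throughout. Stacks needed 20 reads over the 4 libraries. The RefSeq table is of another build. Hairpins were named by arm spacing and by distances to other matched loci, taken within each build and equal within 10 nt, and no position was converted. A name needed 2 supporting loci for 2 arms, 3 for 1 arm, or 1 within 2 Mb where both had 500 reads. A stack matched by 1 arm also needed 500 reads over the 4 libraries of 3 d. These limits were tuned after wrong matches had been seen, so a wrong name remains possible. Loci were fitted with edgeR 4.0.16 in R 4.3.3 (filterByExpr, TMM, no block), tested on simulated data. Its standard error is approximate, the log2 change over the square root of F. DESeq2 1.42.0 was an alternative. Pair values are log2 ratios of RPM with no pseudocount. The rule for named hairpins was the 10 largest rises and 10 largest falls past the threshold with at least 100 reads and 1 direction in both pairs, besides fixed lists and the 10 most abundant in water. Members and lists were chosen with earlier results of these data known. The p-values measure the spread between these samples, and intervals cover counting error only.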

Additional observations from a re-analysis of the deposited data

Results flagged for a closer look

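The direction of the named microRNAs differed between days. The mean over pairs of their median log2 of Dox over water was 3.68 higher at 3 d than at 13 d and 31 d, with both pairs of 3 d above 0 and all 6 later ones below (exact permutation p = 0.0357, the smallest the design allows, and 0.0714 adjusted over 2 comparisons, which does not pass 0.05). This comparison was added after seeing the data. The naming drew on reads of 3 d, Dox included, so part of the difference may be set by it. Centred on the median of all loci in each pair the difference was 4.69. The share of named microRNAs in the water libraries moved with it, 10.1% and 3.95% against 26.5% to 47.0%, and its part was not tested.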

How the results depend on the processing

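The share of tested loci that was called moved with nearly every choice. It is given for all loci, two-arm loci, single stacks and named microRNAs, in that order. The library totals gave 3.66%, 0%, 0.913% and 0%. Scaling over the named hairpins, no filter, and at least 10 water reads per alignment each called 0% of all 4, with 1, 39 and 0 named microRNAs at an unadjusted p under 0.05. The fit of 16 libraries gave 0.00192%, 0%, 0.0189% and 0%. DESeq2 gave 8.58%, 1.78%, 5.81% and 10.1%. With the replicate number as a block the shares were 2.45%, 0.0892%, 1.78% and 0.503%, and 0.00247%, 0%, 0.0268% and 0% when the block was joined with scaling over the named hairpins. The block called 1983 loci higher and 2 lower, against 3443 and 11178 without it, and of the 4 named microRNAs called it kept MIR184 (edgeR adjusted p = 0.0177). Deviations of same-numbered libraries correlated at 0.446 over loci tested and 0.856 over named microRNAs, so same-numbered water and Dox libraries moved together, which the fit without a block ignores. With the block 88 named microRNAs had an unadjusted p under 0.05 by edgeR, against 49 without it. What same-numbered libraries share besides a number and a deposited table is not stated. Leaving out 1 library gave 0% to 31.8%, 0% to 37.0%, 0% to 34.1% and 0% to 61.3%.

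Centred on the median of all loci, the pair 1 median was -0.50 for two-arm loci and 3.03 for named microRNAs. Both kept their sign. With at least 10 water reads per alignment, the median edgeR log2 change over two-arm loci tested turned from -0.285 to 1.504. Over single stacks tested it turned from -0.379 to 0.0326. Directions turned as follows, on the log2 scale. Scaling over the named hairpins takes out their shared change, so a locus turns lower there where its change was below theirs. Scaled over the named hairpins, MIR18A was -0.023, MIR19B1 -0.092, MIR19A -0.26, MIR19B2 -0.16, MIRLET7E -0.53, MIRLET7C -0.15, MIR664A -0.29, MIR142 -0.16 and MIR1248 -2.68. With the block as well, MIR144 was -0.14, MIR18A -0.17, MIR17 -0.31, MIR19B1 -0.40, MIR19A -0.77, MIR93 -0.019, MIR19B2 -0.49, MIR106A -0.33, MIRLET7E -0.52, MIRLET7I -0.084, MIRLET7C -0.24, MIR664A -0.23, MIR142 -0.36, MIR1248 -2.69 and the unnamed locus chr9:139565068-139565126 -0.066. MIR1248 was also -0.85 with the library totals, -0.080 in the fit of 16 libraries, and -0.31 to 0.14 with 1 library left out, below 0 without water replicate 1 (-0.31) or Dox replicate 1 (-0.0081). The cause was not tested. Scaling over the named hairpins, the joined fit, and the counts, medians and day comparison of the named microRNAs were added after seeing the data.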
